A study of Mus musculus with 4 samples.

Results

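*Gata1*, *Klf1*, *Gfi1b*, *Zfpm1*, *Nfe2*, *Epor*, *Car1*, *Car2* and *Aqp1* are 9 genes of the red cell lineage, taken by their symbols as 5 transcription factors, 1 hormone receptor, 2 carbonic anhydrases and 1 water channel. All 9 were among the 18598 genes of the deposited table, and all 9 passed the filter, a mean of 10 or more normalized counts, that left 14858 genes for testing. RNA was sequenced from LSK cells, the lineage-negative, SCA-1 and c-KIT positive cells of bone marrow that hold the blood stem and multipotent progenitor cells, of C57BL/6 mice aged about 3 months. The *Bptf* cKO group, labelled *Bptf* -/-, carried floxed *Bptf* alleles and *Mx1*-cre, and the control group consisted of littermates given in the study's methods as *Bptf* f/f without cre. Both groups received pIpC, which turns on the interferon-driven *Mx1*-cre, and cells were sorted on day 10 after induction. Each group had 2 libraries, each from the pooled marrow of 5 mice, so p-values measure the spread between pools, and any effect of cre itself cannot be told apart from loss of *Bptf*.

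Red cell production is steered by a small circuit of DNA-binding proteins. GATA1 binds GATA motifs together with its cofactor FOG1, the product of *Zfpm1*, and turns on most red cell genes, among them *Klf1*, whose product binds CACCC boxes of the globin and membrane genes. GFI1B, a repressor that recruits LSD1 and CoREST, and NF-E2 p45, the product of *Nfe2*, act in both red cell and platelet precursors. The erythropoietin receptor keeps committed precursors alive through JAK2 and STAT5, and CAR1, CAR2 and AQP1 are abundant in mature red cells, where they handle carbon dioxide and water. LSK cells lie upstream of these steps and are known to carry only low levels of the red cell program in a fraction of the cells.

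Promoters, from 250 bases before to 50 bases after the RefSeq start on GRCm38.p6, were matched for 6 of the 9 genes, namely *Gata1*, *Klf1*, *Gfi1b*, *Zfpm1*, *Epor* and *Aqp1*, and were searched on both strands for the motifs of the circuit. Those of *Klf1*, *Epor* and *Aqp1* are printed because these were the genes among the 6 that differed most between the groups. Capitals mark each match to a GATA motif (AGATAA, and its variants that end in G, begin with T, or both) or to the CACCC-box motif (CCNCNCCC), read on either strand. The *Klf1* promoter is chr8:84901732-84902031 on the plus strand, that of *Epor* is chr9:21963527-21963826 on the minus strand and that of *Aqp1* is chr6:55336049-55336348 on the plus strand.
Klf1: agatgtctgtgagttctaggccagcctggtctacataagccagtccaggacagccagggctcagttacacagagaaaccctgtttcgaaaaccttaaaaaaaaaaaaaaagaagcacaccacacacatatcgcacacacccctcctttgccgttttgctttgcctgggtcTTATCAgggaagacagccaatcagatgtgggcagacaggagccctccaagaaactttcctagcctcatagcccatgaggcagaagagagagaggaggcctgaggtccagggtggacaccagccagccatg
Epor: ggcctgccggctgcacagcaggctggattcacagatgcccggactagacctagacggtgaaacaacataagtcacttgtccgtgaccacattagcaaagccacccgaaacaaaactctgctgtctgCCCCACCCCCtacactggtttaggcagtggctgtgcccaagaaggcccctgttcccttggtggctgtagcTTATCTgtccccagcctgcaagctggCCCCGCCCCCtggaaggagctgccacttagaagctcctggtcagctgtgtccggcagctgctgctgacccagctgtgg
Aqp1: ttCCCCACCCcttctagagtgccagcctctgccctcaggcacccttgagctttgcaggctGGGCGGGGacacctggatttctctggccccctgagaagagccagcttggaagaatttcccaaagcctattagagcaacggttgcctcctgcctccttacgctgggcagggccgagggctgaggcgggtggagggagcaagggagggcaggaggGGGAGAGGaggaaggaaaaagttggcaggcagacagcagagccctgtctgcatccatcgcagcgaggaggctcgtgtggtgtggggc

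The *Klf1* promoter held 1 GATA match, which began 80 bases before the start, and no CACCC-box match. The *Epor* promoter held both, with a GATA match that began 54 bases before the start and 4 CACCC-box matches in 2 overlapping pairs, which began 124, 122, 28 and 26 bases before it. *Aqp1* held 3 CACCC-box matches and no GATA match. Over the 6 promoters, 3 held a GATA motif (*Klf1*, *Gfi1b* and *Epor*) and 5 held a CACCC-box motif, against 29.8% and 49.5% of all 32851 mouse promoters of this length in the same source. The CACCC-box letters also cover GC boxes such as CCCCGCCC, and 6 promoters are too few to set against these shares. None of the 6 held the NF-E2 motif, present in 0.155% of all promoters, or the shorter AP1 core TGACTCA that lies within it, present in 5.2%. A match is a description of letters, and binding was not measured here.

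The libraries held 24875746 reads on listed genes in control replicate 1, 14091054 in control replicate 2, 30134742 in *Bptf* cKO replicate 1 and 14104526 in *Bptf* cKO replicate 2. *Bptf* itself had 5520 and 5850 normalized counts in the control libraries and 3398 and 3320 in the *Bptf* cKO libraries, so the labels and the targeted gene pointed the same way. The libraries numbered 2 stood apart from those numbered 1. *Xist* was at 15675 and 11843 normalized counts in them against 0.775 and 3.25, and *Pou5f1*, *Nanog*, *Sox2*, *Zfp42* and *Dppa5a*, genes of pluripotent cells, were found in both libraries numbered 2 and were at 0 in both numbered 1. For this reason the log2 difference within the libraries numbered 1 and within those numbered 2 is given for each of the 9 genes. The LSK markers *Kit*, *Ly6a* and *Cd34* were present in every library at 726 normalized counts or more, and the 8 LSK markers summed to 53336 and 43175 in the controls and to 41015 and 36944 in *Bptf* cKO.

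Each of the 9 erythroid genes had a lower mean in *Bptf* cKO than in control LSK cells, and the *Bptf* cKO mean ran from 87.5% of the control mean for *Zfpm1* to 14.6% for *Aqp1*. *Epor* and *Aqp1* fell at a limma adjusted p under 0.05, and no member rose. *Klf1* and *Car1* differed by as much as *Epor* but did not pass, and *Car2* and the other 4 regulators did not pass either. With fewer cells of a type or less RNA per cell, a bulk library gives the same values, and these cannot be told apart here.

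Of the 9 genes, 2 were called lower by limma, where 0.37% of all tested genes were called lower and 0.37% were called higher. An unadjusted p under 0.05 with a lower level was reached by 7 of the 9, against 8.96% of all tested genes. Both *Bptf* cKO libraries lay below both control libraries for 8 of the 9, the exception being *Zfpm1*, against 23.8% of tested genes with this order and 23.2% with the opposite order. A log2 fold change below -1 was found for 4 of the 9, against 5.09% of tested genes, and one below 0 for all 9, against 49.8%. The median log2 fold change of the 9 was -0.92, against 0.0010 for all tested genes. In the libraries numbered 1 alone the median difference of the 9 was -0.84, and in those numbered 2 it was -0.99. The 9 genes were picked with results of these data known, so these shares describe them and test nothing.

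The calls depended on the tool. The DESeq2 Wald test on the recovered reads called 5 of the 9 lower (*Aqp1*, *Car1*, *Epor*, *Car2* and *Klf1*) and none higher, where it called 3.37% of tested genes lower and 2.15% higher. The edgeR quasi-likelihood test called none of the 9, where it called 0.303% of genes lower, and gave *Epor* and *Aqp1* the same adjusted p of 0.0513. Over all alternatives the adjusted p ran from 2.18e-07 to 0.299 for *Epor* and from 6.34e-15 to 0.228 for *Aqp1*. No alternative turned the direction of any of the 9.

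**Figure D1:**
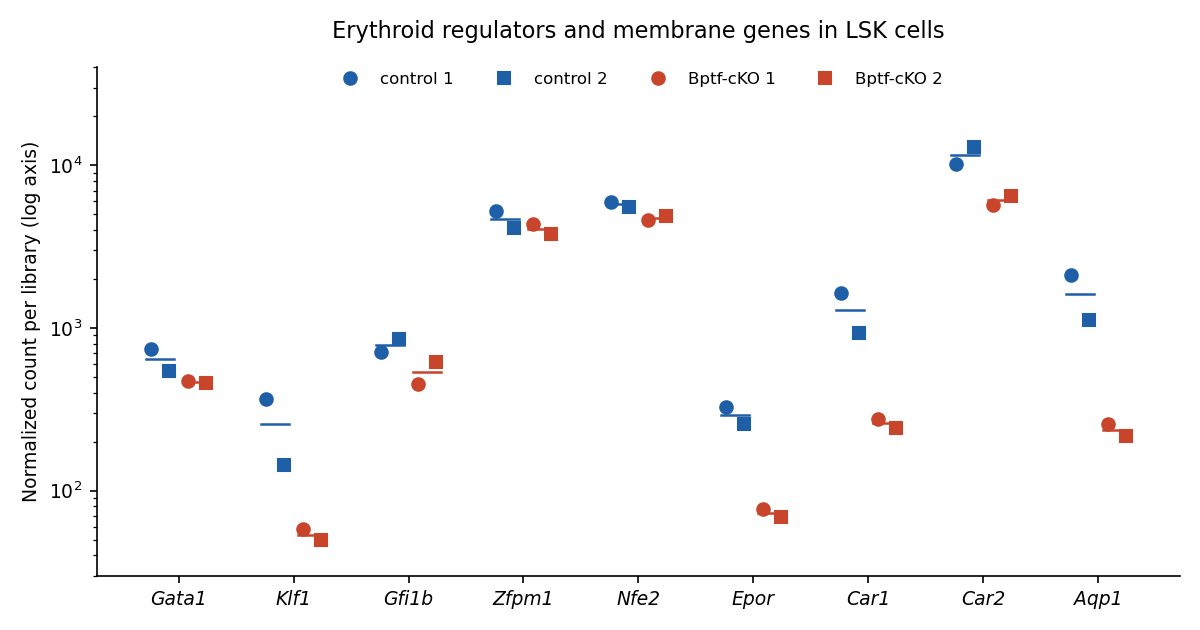
Normalized count of each gene in each library on a log axis. Blue marks control and red *Bptf* cKO libraries, circles replicate 1 and squares replicate 2, and short lines are group means. For *Klf1*, *Epor*, *Car1* and *Aqp1* the red points lie far below the blue ones, while for *Zfpm1* the red point at 4380 lies above the blue one at 4112.

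**Figure D2:**
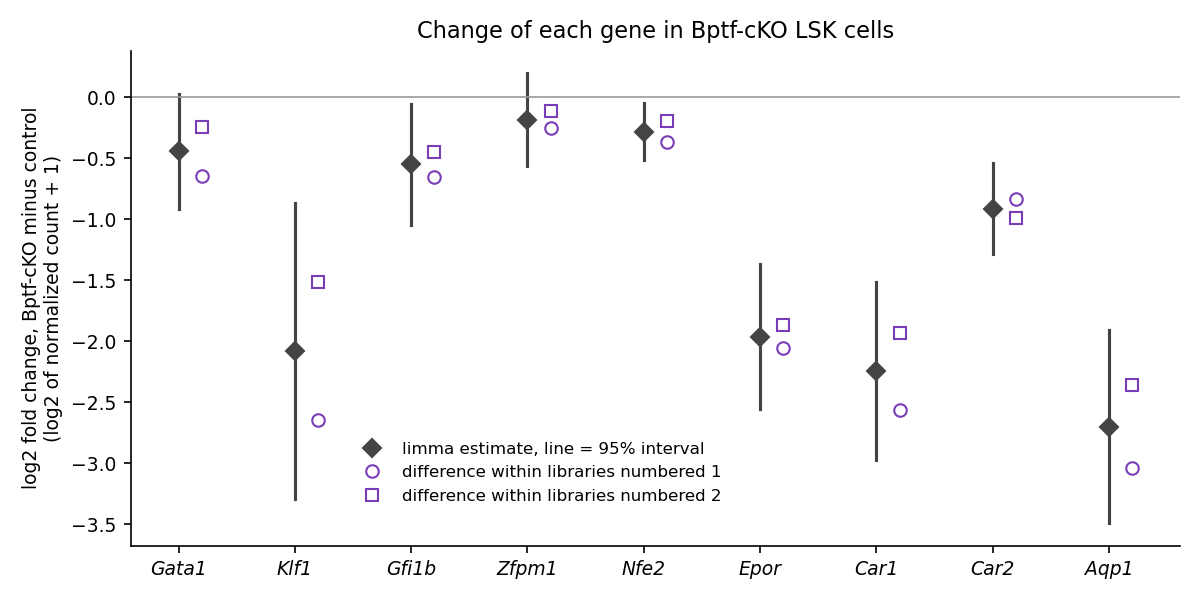
Log2 fold change of each gene (diamond) with the 95% interval from limma, and the difference within the libraries numbered 1 (circle) and 2 (square). The intervals of *Gata1* and *Zfpm1* include 0, and that of *Klf1*, from -3.29 to -0.87, is the widest of the 9.

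*Gata1* spans 7959260 to 7978071 of chromosome X, minus strand, on GRCm38 in GENCODE vM21, the source of the other positions given here. It had 745 and 545 normalized counts in the control libraries and 475 and 460 in the *Bptf* cKO libraries. The *Bptf* cKO libraries were alike and lay below both controls, and the lower control lay closer to them than to the other control. The log2 fold change was -0.45 (standard error, SE, 0.19, 95% interval -0.92 to 0.027, limma adjusted p = 0.343), with -0.65 in the libraries numbered 1 and -0.24 in those numbered 2. The counts went from 645 ± 142 (SD, n = 2) to 468 ± 10.7 (SD, n = 2), so the difference was of the size of the spread between the controls. Without control replicate 1 the log2 fold change was -0.22, and without control replicate 2 it was -0.67.

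*Klf1*, on chromosome 8 from 84901928 to 84905291, had 367 and 143 normalized counts in the controls and 57.8 and 49.4 in the *Bptf* cKO libraries. The 2 controls thus differed from each other by 1.36 on the log2 scale, a wider gap than that of 95.01% of tested genes, while both *Bptf* cKO libraries were low. The log2 fold change was -2.08 (SE 0.48, limma adjusted p = 0.142), with -2.65 in the libraries numbered 1 and -1.51 in those numbered 2. Few reads stood behind *Klf1*, 474 and 103 in the controls and 89 and 35 in *Bptf* cKO. Exact Poisson 95% intervals, which cover counting error only, ran from 117 to 173 normalized counts in the lower control and from 46.5 to 71.2 and 34.4 to 68.7 in the *Bptf* cKO libraries, so counting error did not bridge the groups. By size of fall *Klf1* ranked 140 among the 14858 tested genes, although its test did not pass.

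*Gfi1b*, on chromosome 2 from 28609450 to 28621982, had 716 and 850 normalized counts in the controls and 456 and 621 in *Bptf* cKO. Here the libraries numbered 2 were the higher ones in both groups, and the higher *Bptf* cKO library still lay below the lower control. The log2 fold change was -0.55 (SE 0.20, limma adjusted p = 0.279), with -0.65 and -0.45 within the libraries numbered 1 and 2. *Nfe2*, on chromosome 15 from 103248212 to 103258403, was well expressed, at 5973 and 5581 normalized counts in the controls and 4619 and 4865 in *Bptf* cKO. All 4 values of *Nfe2* lay close together, with a log2 fold change of -0.28 (SE 0.093, limma adjusted p = 0.252), the smallest SE of the 9, and with -0.37 and -0.20 within the libraries numbered 1 and 2. *Zfpm1*, on chromosome 8 from 122282141 to 122337251, had 5232 and 4112 normalized counts in the controls and 4380 and 3794 in *Bptf* cKO. The groups overlapped for *Zfpm1*, and its log2 fold change of -0.19 (SE 0.15, 95% interval -0.57 to 0.20, limma adjusted p = 0.623) was the smallest of the 9. It was -0.26 within the libraries numbered 1, -0.12 within those numbered 2 and -0.013 without control replicate 1.

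*Epor*, the receptor gene, spans 21958897 to 21963506 of chromosome 9, minus strand. It had 326 and 255 normalized counts in the controls and 77.3 and 69.1 in *Bptf* cKO, from 420, 184, 119 and 49 reads. Both *Bptf* cKO libraries lay far below both controls. *Epor* went from 290 ± 49.9 (SD, n = 2) to 73.2 ± 5.80 (SD, n = 2), or 25.2% of the control mean. Its log2 fold change was -1.96 (SE 0.24, 95% interval -2.56 to -1.37, limma adjusted p = 0.0443), and -2.06 and -1.87 within the libraries numbered 1 and 2. The exact Poisson interval reached down to 219 in the lower control and up to 92.5 in the *Bptf* cKO libraries. The call was lost when any 1 library was left out, with adjusted p from 0.0847 to 0.299 in limma, while the log2 fold change stayed between -2.14 and -1.79.

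*Aqp1*, the water channel gene, lies on chromosome 6 from 55336432 to 55348555. It had 2108 and 1121 normalized counts in the controls and 255 and 217 in *Bptf* cKO, the largest fall of the 9 genes on the log2 scale. Control replicate 1 was well above control replicate 2, but both lay far above the *Bptf* cKO libraries. The means were 1615 ± 698 and 236 ± 27.0 (SD, n = 2 each), and the fitted difference was -2.70 on the log2 scale (SE 0.31, 95% interval -3.49 to -1.91, limma adjusted p = 0.0422). Within the libraries numbered 1 the difference was -3.04, and within those numbered 2 it was -2.36. It ranked 59 by size of fall among the tested genes. *Aqp1* passed without either control library (adjusted p = 0.0308 and 0.0157) and did not pass without either *Bptf* cKO library (0.140 and 0.228).

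The carbonic anhydrase genes *Car1* and *Car2* are neighbours on chromosome 3, *Car1* from 14766216 to 14808368 on the minus strand and *Car2* from 14886273 to 14900770 on the plus strand, and they encode related cytosolic enzymes that hydrate carbon dioxide. *Car1* had 1646 and 929 normalized counts in the controls and 278 and 243 in *Bptf* cKO. Both *Bptf* cKO libraries were far below both controls, at 20.2% of the control mean. The log2 fold change of *Car1* was -2.25 (SE 0.29, 95% interval -2.98 to -1.52, limma adjusted p = 0.0524), just outside the threshold, with -2.56 within the libraries numbered 1 and -1.93 within those numbered 2. It passed without control replicate 1 (0.0402) and without control replicate 2 (0.0232), and with no filter on low values (0.0433), and did not pass without *Bptf* cKO replicate 1 (0.172), without *Bptf* cKO replicate 2 (0.269), without the trend (0.173) or with edgeR (0.0610). *Car2* was the most abundant of the 9, at 10214 and 12938 normalized counts in the controls and 5706 and 6511 in *Bptf* cKO. The groups did not overlap for *Car2*, and its log2 fold change was -0.92 (SE 0.15, 95% interval -1.29 to -0.54, limma adjusted p = 0.0760), with -0.84 and -0.99 within the libraries numbered 1 and 2.

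Ratios of genes within a library do not depend on how libraries were scaled. Per kilobase of exon, *Klf1* stood at 0.786 and 0.418 of *Gata1* in the controls and at 0.194 and 0.171 in *Bptf* cKO. *Epor* stood at 0.536 and 0.574 of *Gata1* in the controls and at 0.1995 and 0.184 in *Bptf* cKO. Both ratios were lower in both *Bptf* cKO libraries, and that of *Epor* was the steadier one within the groups. *Aqp1* went from 2.63 and 1.91 times *Gata1* to 0.499 and 0.438 times, and *Car1* from 4.32 and 3.33 times to 1.14 and 1.03 times. The ratios of *Gfi1b*, *Nfe2* and *Car2* to *Gata1* overlapped between the groups. *Zfpm1* went the other way, from 4.89 and 5.25 times *Gata1* in the controls to 6.42 and 5.74 times in *Bptf* cKO. *Car1* stood at 0.313 and 0.139 of *Car2* in the controls and at 0.0944 and 0.0723 in *Bptf* cKO. With 2 libraries against 2, an exact two-sided permutation test of any such ratio cannot give a p below 0.333, so the ratios are given as values without a p.

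In levels per kilobase of exon, the order of the 9 genes in control LSK cells was *Car2* (4779 normalized counts per kilobase), *Nfe2* (1933), *Zfpm1* (1334), *Car1* (1032), *Aqp1* (615), *Gfi1b* (428), *Gata1* (264), *Klf1* (167) and *Epor* (146). The libraries of neighbours overlapped for *Zfpm1* and *Car1*, *Car1* and *Aqp1*, *Aqp1* and *Gfi1b*, *Gata1* and *Klf1*, and *Klf1* and *Epor*, so their order is not settled. In *Bptf* cKO the order was *Car2* (2522), *Nfe2* (1587), *Zfpm1* (1167), *Gfi1b* (294), *Car1* (208), *Gata1* (192), *Aqp1* (90.0), *Epor* (36.8) and *Klf1* (35.04), in which *Car1* overlapped *Gata1* and *Epor* overlapped *Klf1*. *Car2*, *Nfe2* and *Zfpm1* thus held the top places in both groups. *Car1* and *Aqp1* each moved down, with *Gfi1b* above both and *Gata1* above *Aqp1* in *Bptf* cKO. Exon lengths were unions over all GENCODE vM21 transcripts of a gene, and the annotation behind the counts is not given in the sources used here.

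**Figure D3:**
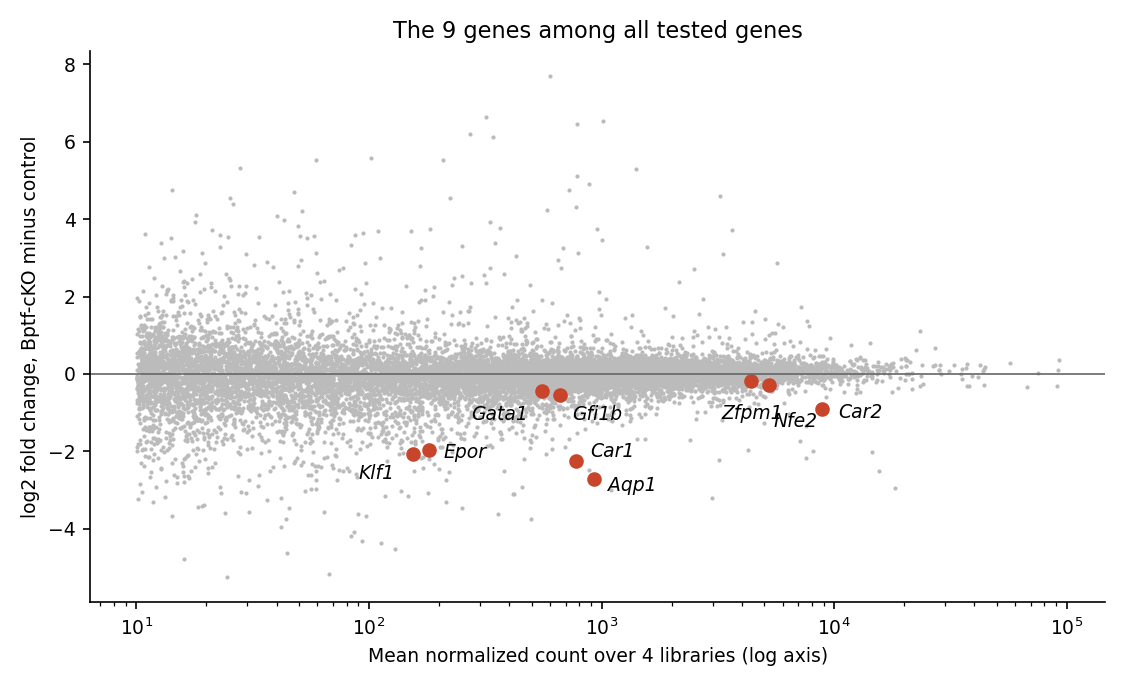
Log2 fold change against the mean normalized count (log axis) of the 14858 tested genes (grey) and the 9 erythroid genes (red). *Aqp1*, *Car1*, *Klf1* and *Epor* lie at the lower edge of the cloud at their level, while *Zfpm1* and *Nfe2* lie within it.

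The gap between the 2 controls was wide for several of the same genes, and control replicate 1 was the higher one in most of them. Control replicate 1 exceeded control replicate 2 by 1.36 for *Klf1*, 0.91 for *Aqp1*, 0.83 for *Car1* and 0.45 for *Gata1* on the log2 scale, where the median absolute gap over all tested genes was 0.24. *Gfi1b* and *Car2* were higher in control replicate 2, with gaps of -0.25 and -0.34. The *Bptf* cKO libraries had gaps from -0.45 for *Gfi1b*, wider than its control gap, to 0.23 for *Aqp1*, with a median of 0.18 over all tested genes.

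RNA of partners of these regulators, of EPO signalling genes and of other red cell genes was described in 8 further lists, which together held 120 genes, of which 102 were listed and 93 tested. None of the 93 was called in either direction by limma or by edgeR, while 22 were lower and 8 higher at an unadjusted limma p under 0.05. Of all 14858 tested genes, 1331 (8.96%) were lower and 1009 higher at that threshold. DESeq2 called 14 lower (15.1%) and 4 higher, against 3.37% and 2.15% of all tested genes, and the median log2 fold change of the 93 was -0.12. Both *Bptf* cKO libraries lay below both controls for 36 of the 93 (38.7%) and above both for 23 (24.7%), against 23.8% and 23.2% of all tested genes.

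The 17 partners of GATA1, FOG1 and GFI1B, all of them tested, had a median log2 fold change of -0.027. In sign 10 were lower and 7 higher, and none was below -1, against 5.09% of all tested genes. *Lmo2*, a bridging protein of the GATA1 and TAL1 complex, had 14539 and 14339 normalized counts in the controls and 9912 and 10757 in *Bptf* cKO (log2 fold change -0.48, limma adjusted p = 0.106). *Kdm1a*, which encodes the demethylase LSD1, had a log2 fold change of -0.33 (adjusted p = 0.219). *Gata2*, which GATA1 replaces on chromatin as red cells form, had 6481 and 5883 normalized counts in the controls and 7583 and 8202 in *Bptf* cKO (0.35, adjusted p = 0.206). The most abundant partner, the remodeler *Chd4*, had a log2 fold change of -0.080. Neither *Lmo2*, *Kdm1a* nor *Gata2* passed in limma, although the groups did not overlap for any of them. DESeq2 called *Lmo2* lower (adjusted p = 0.00210) and did not call *Kdm1a* (0.170) or *Gata2* (0.0964). The paper places *Lmo2* among the genes that its own RNA-seq comparison found lower in *Bptf* cKO LSK cells. It also reports lower *Lmo2* by RT-PCR and reduced DNA accessibility at the *Lmo2* promoter.

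Among the 7 small MAF, BACH and related genes that pair or compete with NF-E2 p45, the median was -0.017. *Nfe2l1*, a stress-responsive relative of *Nfe2*, was at 2825 and 3046 normalized counts in the controls and at 4240 and 4608 in *Bptf* cKO (log2 fold change 0.59, limma adjusted p = 0.0825, DESeq2 adjusted p = 0.000566). *Maff* and *Mafg* had overlapping groups. Of the 17 EPO receptor signalling genes the median was -0.048. Both *Bptf* cKO libraries lay below both controls for 5 (29.4%) and above both for 4 (23.5%), against 23.8% and 23.2% of all tested genes. *Socs3*, a feedback inhibitor of cytokine signalling, had 374 and 225 against 96.8 and 121 normalized counts (-1.41, adjusted p = 0.132). *Gab1*, an adaptor of cytokine and growth factor receptors, had 657 and 614 against 317 and 284 (-1.08, adjusted p = 0.0570). *Cish*, a STAT5 target that dampens the pathway, had 675 and 784 against 458 and 388 (-0.79, adjusted p = 0.113). All 3 were lower in both *Bptf* cKO libraries and none passed in limma. DESeq2 called *Socs3*, *Gab1* and *Cish* lower, at adjusted p = 0.00397, 1.98e-05 and 0.00831. The most abundant of the list, the ubiquitin ligase gene *Cbl*, had a log2 fold change of 0.10.

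Of the 14 other erythroid regulators 12 were tested, with 6 lower and 6 higher in sign and a median of -0.047. *Btg2*, an antiproliferative gene, had 1160 and 1563 normalized counts in the controls and 556 and 560 in *Bptf* cKO (log2 fold change -1.27, limma adjusted p = 0.0570). *Sox6*, a partner of BCL11A in globin control, had a log2 fold change of -0.71 (adjusted p = 0.304). *Gfi1*, the myeloid paralog of *Gfi1b*, had 1380 and 1333 normalized counts in the controls and 2047 and 2256 in *Bptf* cKO (0.66, adjusted p = 0.0726). The pair thus differed in direction, with *Gfi1* higher and *Gfi1b* lower in both *Bptf* cKO libraries, and neither passed in limma. DESeq2 called *Gfi1* higher (adjusted p = 0.000305) and *Btg2* lower (4.28e-07), and did not call *Gfi1b* (0.232) or *Sox6* (0.178). *Myb*, the most abundant of this list, had a log2 fold change of -0.12.

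The list closest to *Aqp1* in function held other red cell membrane and surface genes, of which 24 of 25 were tested. Their median log2 fold change was -0.85, 18 were lower and 6 higher in sign, and 10 (41.7%) were below -1, against 5.09% of all tested genes. The median difference of the list was -1.25 within the libraries numbered 1 and -0.31 within those numbered 2. Both *Bptf* cKO libraries lay below both controls for 15 of the 24 (62.5%), against 23.8% of all tested genes. None was called by limma or edgeR, and 11 were lower and 2 higher at an unadjusted limma p under 0.05. Of all 14858 tested genes, 1331 (8.96%) were lower and 1009 higher at that threshold. DESeq2 called 6 lower and 1 higher, against 3.37% and 2.15% of all tested genes. *Ermap*, an erythroid surface protein of the immunoglobulin family, had 813 and 499 normalized counts in the controls and 29.9 and 86.1 in *Bptf* cKO (-3.62, SE 0.54, limma adjusted p = 0.0660, DESeq2 adjusted p = 2.38e-10). *Add2*, a membrane skeleton subunit, had 204 and 144 in the controls and 3.90 and 36.7 in *Bptf* cKO, from 6 and 26 reads in the latter. Its log2 fold change was -3.67 (SE 0.97, limma adjusted p = 0.183, DESeq2 adjusted p = 0.00698). That fold rests on few reads, and the wide gap between its *Bptf* cKO libraries stood beside the large difference. *Rhd*, of the Rh antigen complex, had 132 and 37.4 in the controls and 7.15 and 4.23 in *Bptf* cKO, from 11 and 3 reads in the latter, too few for a fold to be given. The most abundant, *Cd47*, which is made by nearly all cells, had a log2 fold change of 0.10.

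Of the 14 other carbonic anhydrases 6 were tested, 2 of them lower and 4 higher in sign, with a median log2 fold change of 0.18. *Car12*, a membrane-bound form, had 134 and 126 normalized counts in the controls and 322 and 315 in *Bptf* cKO (log2 fold change 1.28, limma adjusted p = 0.0613). *Car13*, a cytosolic form, had 258 and 346 against 134 and 168 (-0.99, adjusted p = 0.156), and the mitochondrial *Car5b* had 45.7 and 69.3 against 22.1 and 32.5 (-1.04, adjusted p = 0.319). DESeq2 called *Car12* higher and *Car13* lower (adjusted p = 9.77e-05 and 0.0330) and did not call *Car5b* (0.446). *Car9*, the most abundant, had a log2 fold change of 0.24. Of the 11 other aquaporins 2 were tested, *Aqp9* and *Aqp11*, with log2 fold changes of -0.29 and -0.38 (adjusted p = 0.422 and 0.643).

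The globin and late heme list had 8 tested genes with a median of -0.59, and medians of -0.92 and -0.088 within the libraries numbered 1 and 2. Of the 8, 4 were below -1, against 5.09% of all tested genes. Both *Bptf* cKO libraries lay below both controls for 5 (62.5%), against 23.8% of all tested genes. None was called by limma or edgeR, and DESeq2 called 1 lower (12.5%), against 3.37% of all tested genes. *Hbb-bt* had 147 and 499 normalized counts in the controls and 47.4 and 110 in *Bptf* cKO (-1.89, limma adjusted p = 0.283), and *Hbb-bs* had 48.1 and 81.8 against 8.45 and 48.0 (-1.57, adjusted p = 0.452). *Alas2*, the erythroid enzyme of the first step of heme synthesis, had 13.2 and 31.9 against 3.25 and 2.82, from 5 and 2 reads in *Bptf* cKO. Reads of the near-identical globin genes can be split between copies, and how the counting treated them is not given in the sources used here. *Slc25a37*, the mitochondrial iron importer and the most abundant of the list, had a log2 fold change of 0.041.

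**Figure D4:**
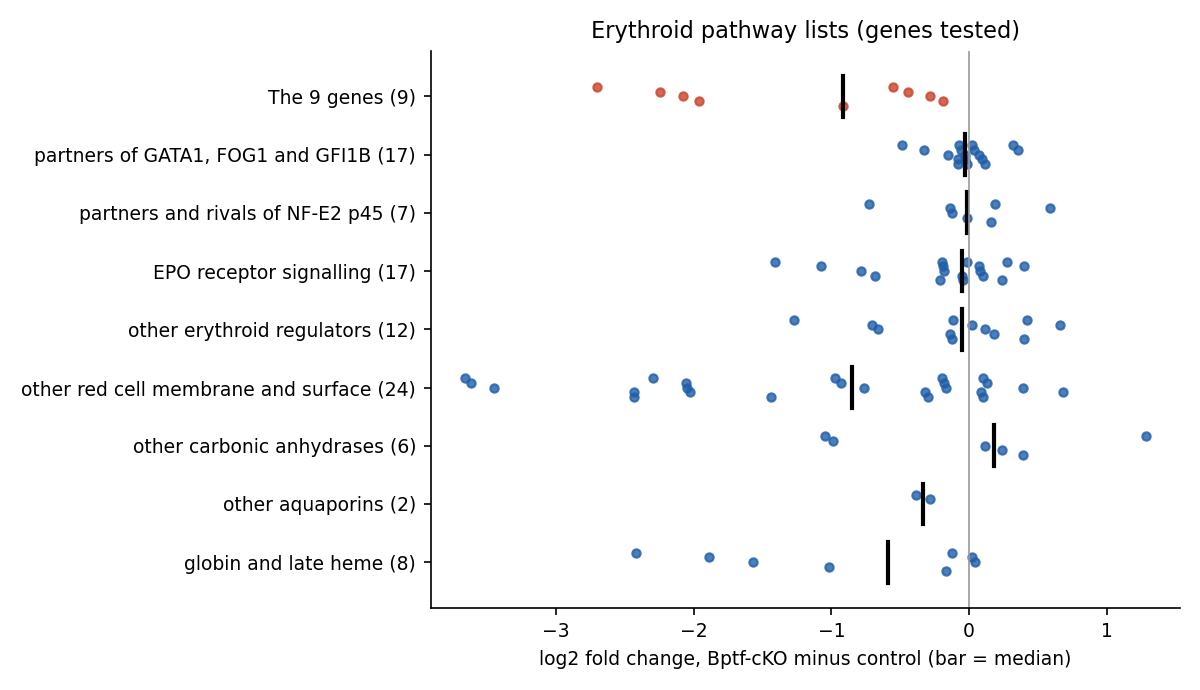
Log2 fold change of each tested gene (point) by list, with the median as a black bar and the number of genes tested in brackets. The 9 erythroid genes (red) and the red cell membrane list have medians of -0.92 and -0.85, whereas the partner and signalling lists centre near 0.

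The summed markers of some other cell types lay apart between the groups and those of others overlapped. Their part in the changes of the 9 genes was not tested. The 10 listed of 11 markers of maturing erythroid cells summed to 719 and 908 normalized counts in the controls and to 168 and 337 in *Bptf* cKO. Of the 9 tested, 6 were lower in both *Bptf* cKO libraries, an order found for 23.8% of all tested genes. *Ahsp* was not in the table, and *Hba-a2* was at 0 in *Bptf* cKO replicate 1. GATA1 is also used in megakaryocytes, mast cells and eosinophils. The 10 megakaryocyte and platelet markers summed to 8016 and 6284 in the controls and 6163 and 5906 in *Bptf* cKO, with a median log2 fold change of -0.23.

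The 8 mast cell and basophil markers summed to 7770 and 6472 in the controls and to 12898 and 30670 in *Bptf* cKO. Of the 8, 7 were higher in both *Bptf* cKO libraries, an order found for 23.2% of all tested genes, and none was called by limma. *Gata2*, given above as a partner of GATA1, was among these 7 and made up most of the control sums. It was at 6481 and 5883 in the controls and 7583 and 8202 in *Bptf* cKO. *Cma1*, a mast cell protease, was at 21.7 and 45.7 in the controls and 309 and 5263 in *Bptf* cKO, with the highest value in *Bptf* cKO replicate 2. The 8 eosinophil markers summed to 500 and 949 in the controls and 336 and 231 in *Bptf* cKO, with *Ear1* at 0 in both *Bptf* cKO libraries and *Epx* and *Ear6* at 0 in replicate 2. Of the 7 tested, 5 were lower in both *Bptf* cKO libraries, an order found for 23.8% of all tested genes, and none was called by limma. The groups overlapped for the other tested markers, *Il5ra* and *Siglecf*, with log2 fold changes of 0.08 and 0.34. The 11 granulocyte and monocyte markers were lowest in control replicate 2, at 12960.1 against 48621 to 67213 in the other libraries. The lymphocyte markers, 8 of 11 listed and *Ms4a1* at 0 in *Bptf* cKO replicate 2, summed to between 1913 and 6953 in the 4 libraries.

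**Figure D5:**
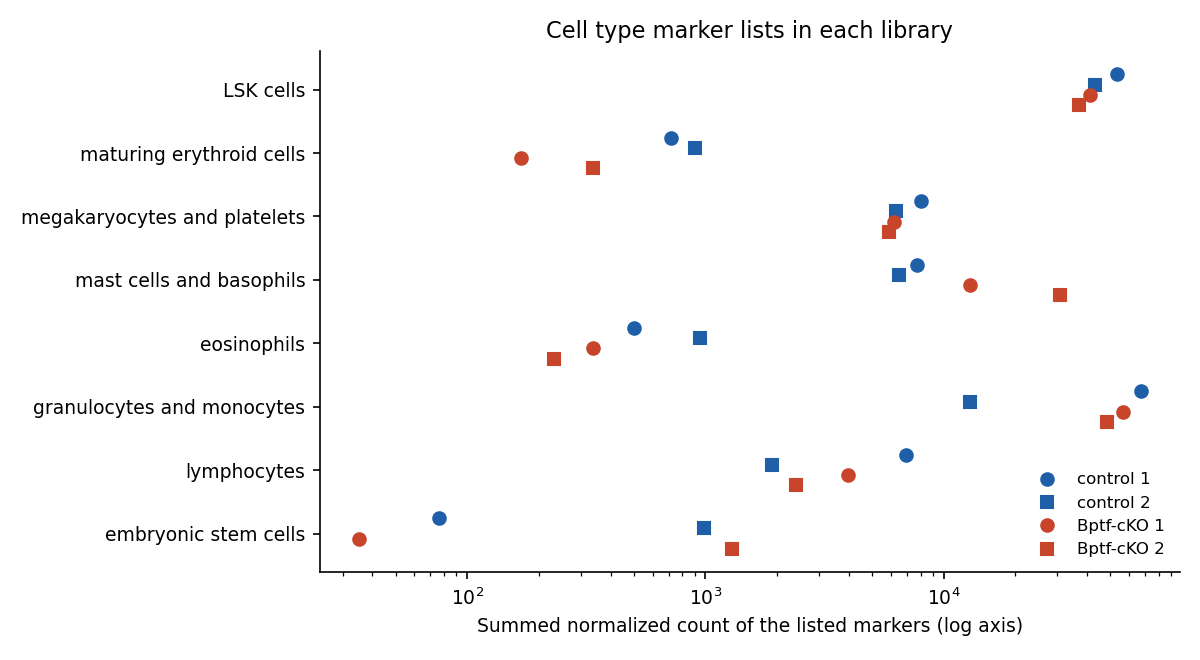
Summed normalized count of each marker list in each library on a log axis, with colours and shapes as in the plot of levels by library. The maturing erythroid and eosinophil sums are lower, and the mast cell sums higher, in both *Bptf* cKO libraries, and the embryonic stem cell sums are high in the libraries numbered 2.

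Among the 10814 other genes at a mean of 100 normalized counts or more, the 3 whose pattern over the 4 libraries was closest to that of *Gata1* were *Zfp831*, *Fbxl4* and *Apcdd1*, with root mean square distances of 0.038, 0.043 and 0.043 on the log2 scale. *Zfp831* was at 1039, 796, 686 and 629 normalized counts in control replicates 1 and 2 and *Bptf* cKO replicates 1 and 2, the same order as *Gata1*. A likeness over 4 libraries among so many genes is a description only. None of the 9 erythroid genes shared exon bases with another annotated gene. *Gm20388* lies across *Zfpm1* and *Gm16399*, a processed pseudogene, lies across *Car1*, both on the same strand as the gene they overlap.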

How the data were processed

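The deposited table gives, for each gene symbol and library, a signal that the authors made by dividing the gene count by 1 size factor per library. The submitters' processing notes name HISAT2, featureCounts, DESeq2 and the builds GRCm38 and mm10, and the annotation and settings are not given in the sources used here. Columns with the authors' own fold changes and p-values were not used. All values (100%, tolerance 0.01) were whole multiples of 1 step per library, so whole reads were recovered. The lowest total of any gene over the 4 libraries was 11 reads.

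Log2 of the normalized count plus 1 was compared between genotypes for 14858 genes (mean 10 or more) by limma 3.58.1 (R 4.3.3), trend on and no other covariate, with two-sided p-values adjusted by Benjamini-Hochberg and called under 0.05. Alternatives were edgeR 4.0.16 and DESeq2 1.42.0 on the reads, pseudocounts of 0.5 and 10, other filters and scalings, no trend, the replicate number as a block, and each library left out in turn. The fits were checked on simulated counts for the return of set fold changes. That simulation held no effect shared by libraries of equal number, so it does not bear on the calls under such an effect. The 9 members and all lists were chosen with earlier results of these data known. Named from each list were any called gene, the most abundant gene and the 3 with the largest log2 fold change, and other genes named were chosen after their values were seen. Positions and exon lengths came from GENCODE vM21 and promoters from RefSeq GRCm38.p6. Protein sequences were not analysed here. Python 3.11.15 with pandas 2.3.3 summarised the fits.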

Additional observations from a re-analysis of the deposited data

How the results depend on the processing

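No alternative turned the direction of any of the 9 genes or of *Bptf*. The 9 genes had 2 called lower and 0 higher, and 0 lower with limma without the trend or with edgeR, 5 with DESeq2, 7 with the replicate block in limma, 6 with the block in edgeR, and 0 to 2 with each library left out, the 0 being without *Bptf* cKO replicate 1 and without *Bptf* cKO replicate 2. Over all genes, 55 lower and 55 higher became 0 and 2 without the trend, 500 and 319 with DESeq2, 1242 and 896 with the block in limma, 1229 and 891 with the block in edgeR, and 0 to 41 lower and 1 to 76 higher with each library left out (17 lower without control replicate 2, and 0 lower and 1 higher without either *Bptf* cKO library). The other erythroid genes had 0 lower and 0 higher in limma, 14 and 4 with DESeq2, 22 and 9 with the block in limma, 23 and 9 with it in edgeR, and 0 to 1 lower with each library left out. *Bptf* differed by -0.76 on the log2 scale (adjusted p = 0.0439 in limma) and did not pass with edgeR (-0.76), without the trend (-0.76), with recentred libraries (-0.71) or with any library left out (-0.80 to -0.72). The cause of these changes was not tested. Leaving out 1 library leaves its group with 1 sample, which is assumed to vary like the others.

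Libraries share replicate numbers, but no shared origin of equal numbers is stated, and the main fit did not pair them. The values did group by number, as *Xist* and the genes of pluripotent cells showed. Deviations of the libraries numbered 1 from their group means correlated at 0.452 over all tested genes. The correlation was 0.638 when only genes averaging 100 or more normalized counts were kept. The main fit has no term for the number, so differences shared by equal numbers count there as spread within groups. With the replicate block in limma *Klf1*, *Gfi1b*, *Nfe2*, *Epor*, *Car1*, *Car2* and *Aqp1* passed, at adjusted p from 1.20e-06 to 0.0496, and *Gata1* (0.0535) and *Zfpm1* (0.182) did not. Recentring moved the median of all genes from 0.0010 to 0.053 and the log2 fold change of *Gata1* to -0.39. Other filters, pseudocounts and quantile normalization left *Epor* and *Aqp1* called, and no filter added *Car1*. Counting error is widest for the genes with few reads, such as *Alas2* and *Rhd*.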
